A study of Mus musculus with 18 samples.

Results

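The transcriptomes of astrocytes and microglia isolated from the brains of wild-type (WT) mice were compared, in order to describe the genes and functions that separate these glial types in the absence of the *Atxn2* mutation. The comparison took the 3 WT astrocyte and the 3 WT microglia libraries out of the 18 libraries of the series. The other libraries held WT neurons and the astrocytes, microglia and neurons of homozygous *Atxn2*-CAG100-KIN mice, a knockin model with an expanded CAG repeat in *Atxn2*. All mice were 10 months old and untreated, on a C57BL/6 background, and the WT mice were littermates of the mutants. Each brain was dissociated enzymatically with heating, cleared of debris and red blood cells, and passed over magnetic beads in sequence. CD11b beads took the microglia first, and ACSA-2 beads then took the astrocytes from the remaining cells. Both fractions were therefore enriched populations rather than pure cells, CD11b is also carried by other myeloid cells, and the RNA of each fraction was sequenced in bulk with depletion of ribosomal RNA. The reads of all transcripts with the same symbol were summed, and 12157 of the 23232 symbols with a read in these 6 libraries had at least 5 reads in at least 2 libraries and were tested. In bulk libraries of this kind, fewer cells of a type and less RNA per cell cannot be told apart.

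Astrocytes arise from the neuroectoderm. They clear glutamate and potassium from the extracellular space, supply neurons with metabolites and cholesterol, and contact blood vessels through aquaporin-rich endfeet. Microglia arise from yolk sac macrophages and depend on CSF1R signalling. They survey the tissue with motile processes, sense nucleotides, complement and lipids, and degrade what they engulf in lysosomes.

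Of the genes tested, 3284 (27.0%) were called different between the fractions. Higher in astrocytes were genes of glutamate and GABA uptake (12 of 18, among them *Slc1a2*), of potassium and water transport (13 of 20, *Aqp4*), of sterol synthesis (14 of 23, *Srebf2*), of metal binding and antioxidant defence (10 of 23, *Mt3*), receptors of development (18 of 24, *Fgfr3*) and matrix proteins (17 of 25, *Bcan*). Higher in microglia were genes of TREM2 and Fc receptor signalling (26 of 26, *Trem2*), the C1q chains, antigen presentation (14 of 20, *B2m*), receptors of cytokines and chemokines (20 of 32, *Csf1r*), lysosomal enzymes (22 of 44, *Ctsd*) and leukocyte actin (26 of 29, *Cotl1*). Several families were divided between the fractions by isoform, such as the hexokinases and the glucose and fructose transporters. The genes and their values follow by role, after the libraries and the markers.

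The 3 astrocyte libraries held 2118317 to 2300100 reads and the 3 microglia libraries 2334633 to 3296398 reads, counted once per unique molecular identifier. Most reads fell on a few symbols. *Zfp101* took 20.5 to 47.3% of a library and *Creb5* 19.6 to 31.0%, so that 768837 to 1168189 reads per library remained for all other genes. For each of the pair, 100% of the reads to 3 digits lay on 1 transcript, ENSMUST00000174512 of *Zfp101* and ENSMUST00000211679 of *Creb5*, the latter without a defined coding sequence. Whether these reads derive from the genes named was not tested, and both are given here as symbols of the annotation. Levels are given as CPM, the counts scaled to a common library total. They were not corrected for transcript length, so that values are compared between libraries and a choice of genes by CPM does not order them by number of transcripts. Microglia replicate 2 stood apart. Its scaling factor was 0.528 against 0.880 to 1.41 in the other 5 libraries, and the CPM of its microglia markers and ribosomal protein genes was above that of the other microglia libraries. Within a group, the correlation of log2 CPM across genes was 0.862 to 0.919, and between groups 0.530 to 0.619.

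The labels held against their markers. *Aqp4*, the water channel of astrocytic endfeet (GRCm39 chr18:15522451-15544039), had 31.7, 56.3 and 29.3 CPM in astrocytes and 1.35, 1.15 and 0 CPM in microglia. *Fgfr3*, a fibroblast growth factor receptor of astrocytes (chr5:33879018-33894412), had 78.6, 109.6 and 78.1 CPM in astrocytes and 0, 0.576 and 2.93 CPM in microglia. Both were higher in every astrocyte library than in any microglia library. *Aif1*, which encodes the actin-binding protein IBA1 (chr17:35387384-35395053), had 37.4, 48.4 and 42.5 CPM in microglia and 0 CPM in all 3 libraries in astrocytes. *Tmem119*, a membrane protein of resident microglia (chr5:113931781-113938577), had 89.9, 169.9 and 84.5 CPM in microglia and 0.378, 0 and 0.337 CPM in astrocytes. Their separation was likewise complete. The difference between astrocytes and microglia (log2FC, positive where astrocytes were higher, ± SE) was 5.39 ± 0.48 for *Aqp4* (adjusted p = 1.07e-12, and 6.13 without microglia replicate 1). It was 6.33 ± 0.48 for *Fgfr3* (adjusted p = 1.01e-14), and 5.63 and 8.39 without microglia replicate 1 and 3, respectively. *Aif1* was at least 115-fold higher in microglia (adjusted p = 1.49e-15), taking 3 reads over the group as the floor for the 0 reads in astrocytes. *Tmem119* was 451-fold higher in microglia (counting interval 124 to 3728, adjusted p = 5.04e-17), a ratio of pooled CPM, since 2 reads were left in astrocytes and the 95% interval covers counting error only. The antigens of the beads went the same way, which the isolation itself used and which is therefore no finding. *Itgam*, encoding CD11b (chr7:127661808-127717753), had 20.5, 23.6 and 14.7 CPM in microglia and 2.65, 0.751 and 3.03 CPM in astrocytes. *Atp1b2*, the ACSA-2 antigen (chr11:69487651-69496851), had 127, 197 and 142 CPM in astrocytes and 6.40, 2.88 and 6.35 CPM in microglia. All 25 genes of a list of astrocyte markers were called higher in astrocytes and all 20 of a list of microglia markers higher in microglia, the former list holding *Atp1b2* and the latter *Itgam*. *Itgam* is also among the complement and the leukocyte actin genes counted below. A call required an adjusted p of at most 0.05 (edgeR quasi-likelihood test, Benjamini-Hochberg) and a log2FC of at least 1 in size.

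**Figure D1:**
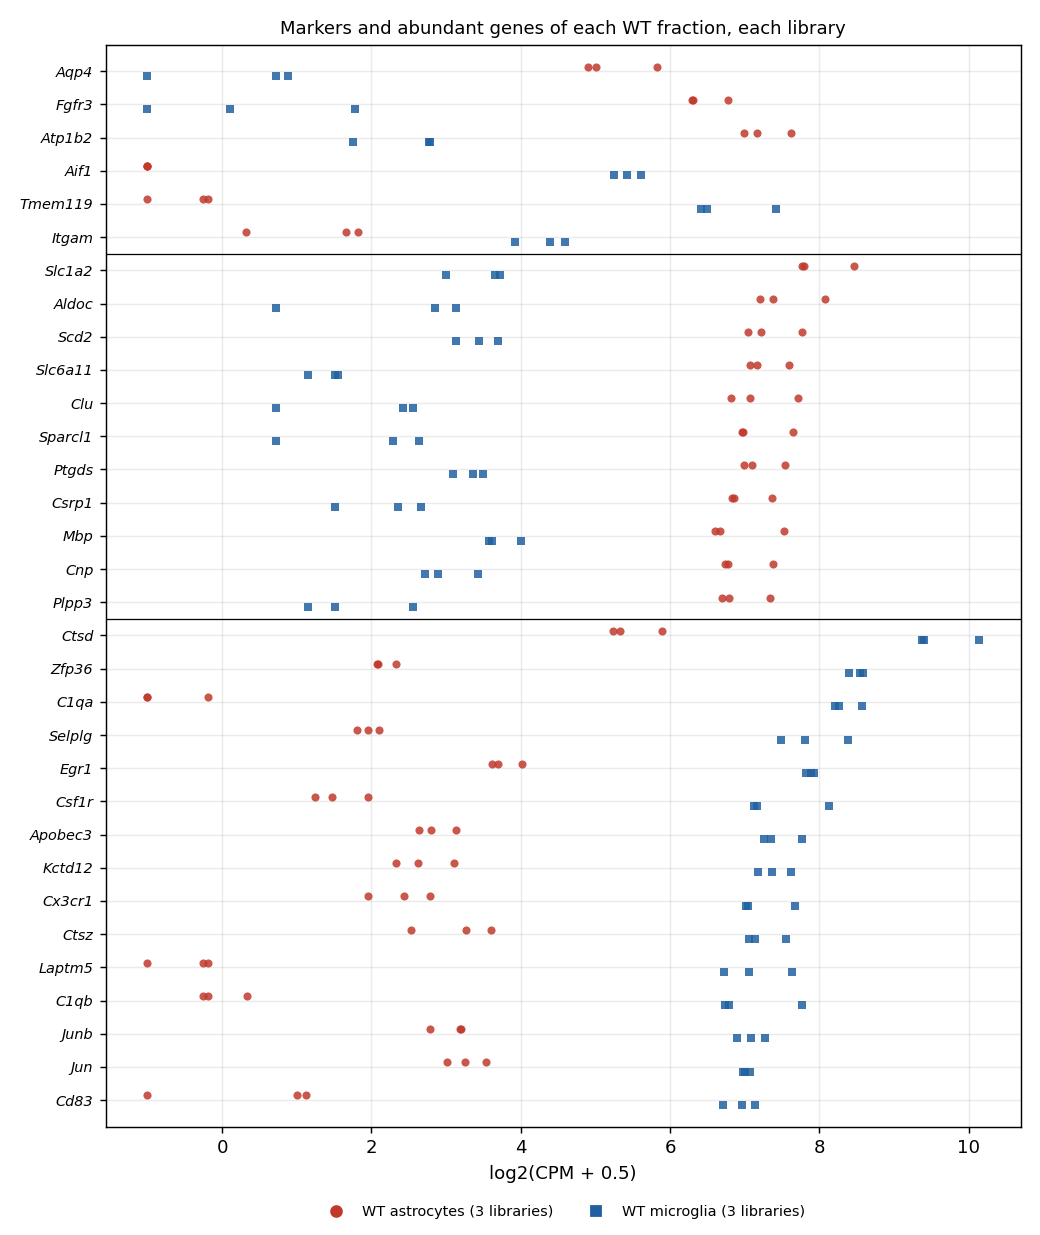
Level of the markers and of abundant genes of each fraction in the 3 WT astrocyte libraries (red circles) and the 3 WT microglia libraries (blue squares), as log2(CPM + 0.5), 1 point per library. In every row the groups are separate, and libraries with 0 reads lie at the left edge, as for *Aif1* in astrocytes.

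RNA of other cells was present in both fractions. The 12 oligodendrocyte markers summed to 529.7 to 883.9 CPM in astrocyte libraries and 39.6 to 43.1 CPM in microglia libraries, and all 12 were called higher in astrocytes. *Mbp*, a structural protein of myelin, had 101, 185 and 96.6 CPM in astrocytes and 11.4, 15.6 and 11.7 CPM in microglia. Of 5 oligodendrocyte precursor markers tested, 4 were called higher in astrocytes, among them *Olig1*, 38.1-fold higher in astrocytes (counting interval 12.8 to 187, adjusted p = 1.66e-10, and 84.8-fold without microglia replicate 2). Of 12 neuron markers, 4 were called higher in astrocytes, among them *Snap25*, a synaptic fusion protein (log2FC 1.31 ± 0.36, adjusted p = 0.00448 and 2.04 without microglia replicate 1, but not called without astrocyte replicate 1), and *Map2*, a dendritic microtubule protein (log2FC 1.94 ± 0.36, adjusted p = 3.63e-05 and 2.98 without microglia replicate 1). Without microglia replicate 2, 2 of the 12 were called. None of 7 endothelial markers tested was called. Of 5 mural cell markers tested, 3 were higher in astrocytes, with *Vtn*, a plasma-type adhesion protein of pericytes, at 12.1, 20.6 and 14.8 CPM in astrocytes and 1.01, 1.73 and 1.47 CPM in microglia. Of 6 ependymal and choroid markers tested, 4 were higher in astrocytes, while *Ttr*, the thyroid hormone carrier of the choroid plexus, was not called (92.6, 84.8 and 90.2 CPM in astrocytes and 44.8, 108 and 32.2 CPM in microglia). All 4 globin genes of the erythroid list were called higher in astrocytes, with sums of 17.5 to 27.4 CPM against 2.88 to 7.74 CPM, but 1 of them without microglia replicate 2.

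Among markers of other cells, those of monocytes and neutrophils were higher in microglia, with 3 of the 4 tested called and sums of 71.3 to 89.3 CPM against 3.00 to 3.40 CPM. *S100a8*, a calcium-binding protein of neutrophils, had 38.4, 50.7 and 40.5 CPM in microglia and 0 CPM in all 3 libraries in astrocytes, and *S100a9*, its partner, had 27.6, 29.9 and 18.6 CPM in microglia and 0, 0.375 and 0 CPM in astrocytes. Neither had more than 1 read in all astrocyte libraries. Of 5 border macrophage markers tested, 1 was called higher in microglia and none in astrocytes. Their list summed to 16.1 to 27.4 CPM in microglia and 7.51 to 13.8 CPM in astrocytes. The lymphocyte list left 1 gene tested, which was not called. Genes of the Y chromosome (*Ddx3y*, *Kdm5d*, *Uty*) did not pass the test, and each had reads in all 6 libraries. The study used mice of both sexes, the labels give no sex for a library, and none was inferred here. A further measure separated the fractions without being a cell type marker. All 27 immediate-early and dissociation genes were higher in microglia, with sums of 1819 to 1978 CPM against 153.8 to 193.3 CPM in astrocytes. The part of these other cells and of the dissociation response in the differences described here was not tested.

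**Figure D2:**
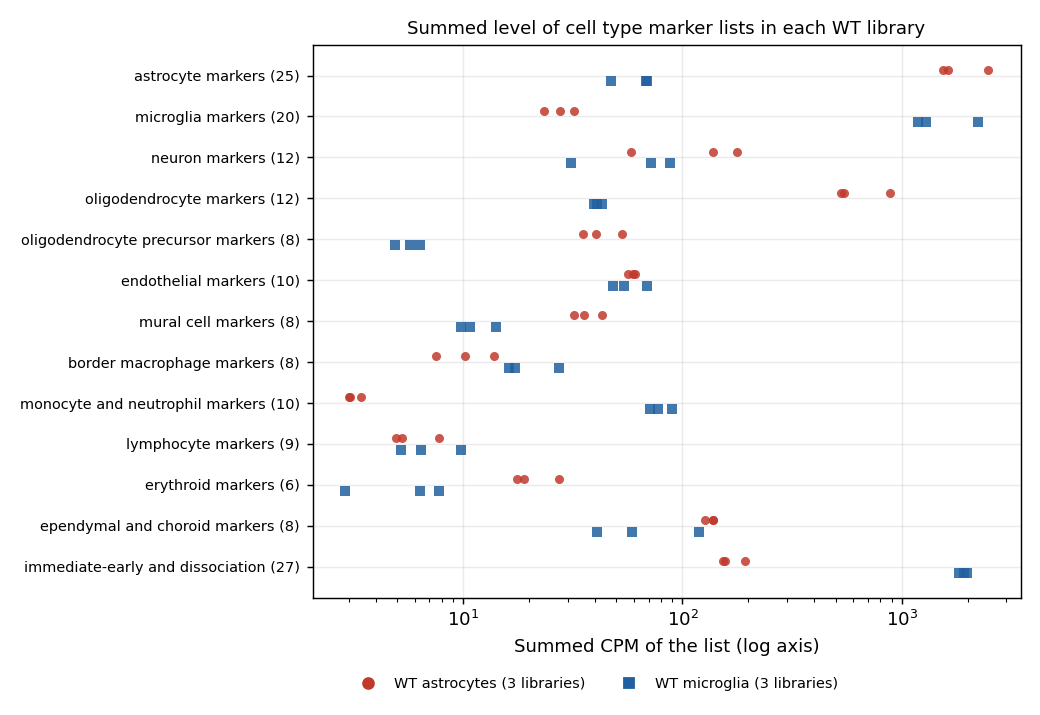
Summed CPM (log axis) of cell type marker lists and of the immediate-early and dissociation genes in each WT library, with the number of genes per list in parentheses. Astrocyte and microglia markers separate the fractions, oligodendrocyte markers lie at 529.7 CPM or more in astrocytes, and the immediate-early genes at 1819 CPM or more in microglia.

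Over all genes tested, 1671 (13.7%) were called higher in astrocytes and 1613 (13.3%) higher in microglia, so that the 3284 called genes were divided almost evenly, 50.9% of them being higher in astrocytes. The median log2FC of all genes tested was 0.01. The lowest library of one group lay above the highest of the other for 4999 genes (41.1%), and for 3131 of the called genes. A difference of 8-fold or more was called for 421 genes in astrocytes and 441 in microglia. In the other fraction, 53 genes called in astrocytes and 70 called in microglia had no read at all. The summed counts behind a difference vary widely, and a gene with 0 or few reads in one fraction is given as a bound or with its counting interval rather than by its fitted log2FC.

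**Figure D3:**
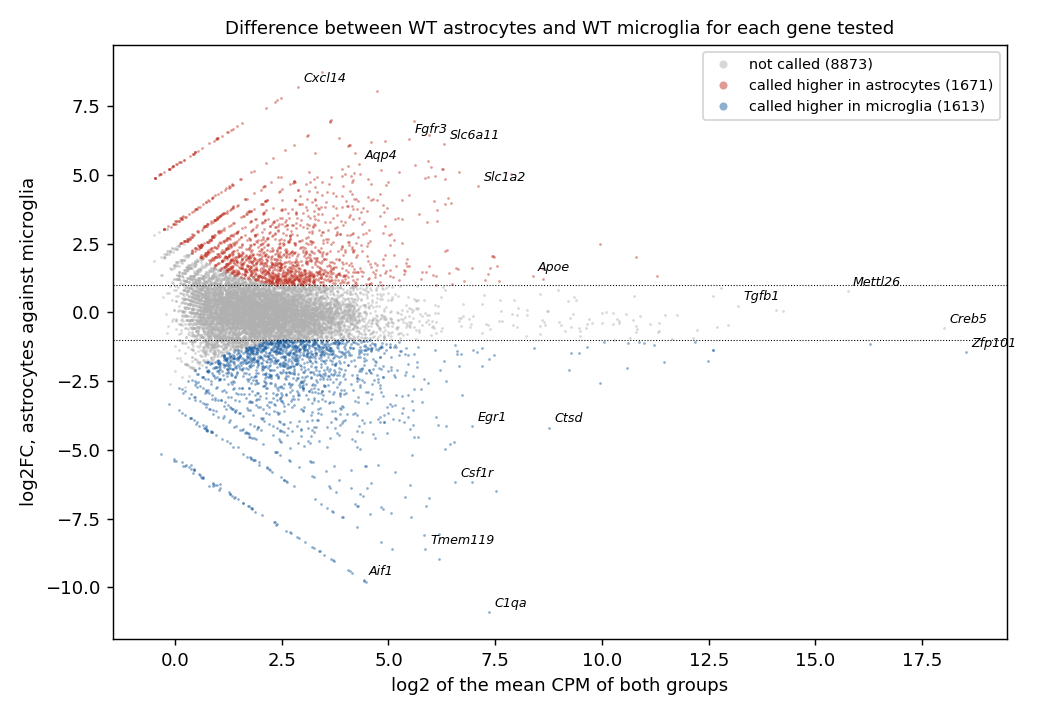
Difference between WT astrocytes and WT microglia (log2FC, positive where astrocytes were higher) against log2 of the mean CPM of both groups, 1 point per gene tested. The 1671 genes called higher in astrocytes (red) and the 1613 higher in microglia (blue) lie beyond the dotted lines at a log2FC of 1 and -1, the parallel streaks are genes with 0 or few reads in one group, and *Zfp101* and *Creb5* lie at the far right.

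Among the genes called higher in astrocytes by a log2FC of 3 or more, the 15 of highest mean CPM included *Slc1a2*, the glutamate transporter GLT-1, with 222, 351 and 217 CPM in astrocytes and 12.1, 7.49 and 12.7 CPM in microglia (log2FC 4.59 ± 0.34, adjusted p = 6.92e-15). Astrocyte replicate 2 was the highest of the 3, and no microglia library came near the lowest astrocyte library. The glycolytic enzyme *Aldoc* (148, 269.9 and 166 CPM in astrocytes and 6.73, 1.15 and 8.30 CPM in microglia) and the GABA transporter *Slc6a11*, known as GAT-3 (142, 192 and 134 CPM in astrocytes and 2.36, 1.73 and 2.44 CPM in microglia), followed the same order. *Clu*, a secreted chaperone and lipid carrier (log2FC 5.22 ± 0.39, adjusted p = 8.24e-15), *Sparcl1*, a secreted matrix protein that promotes synapse formation (log2FC 5.21 ± 0.39, adjusted p = 6.92e-15), and *Plpp3*, a lipid phosphate phosphatase (log2FC 5.30 ± 0.39, adjusted p = 5.07e-15), were higher by a log2FC of 5 or more. *Csrp1*, a LIM-domain protein (4.98), and *Scd2*, a fatty acid desaturase (3.97), followed. Of the same 15 genes, *Mbp*, *Cnp* and *Ptgds* are known from myelinating oligodendrocytes or meninges rather than from astrocytes. *Ptgds*, the lipocalin-type prostaglandin D synthase, had 127, 186 and 136 CPM in astrocytes and 10.8, 8.06 and 9.77 CPM in microglia, and *Cnp*, a myelin phosphodiesterase, had 109.6, 167 and 106 CPM in astrocytes and 6.06, 6.91 and 10.3 CPM in microglia.

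The 15 genes higher in microglia by this rule included *Ctsd*, the lysosomal protease cathepsin D, with 678, 1126 and 664 CPM in microglia and 39.7, 58.9 and 37.0 CPM in astrocytes (log2FC −4.18 ± 0.33, adjusted p = 3.35e-14). *Zfp36*, which encodes tristetraprolin, a protein that promotes decay of cytokine mRNAs, had 384, 337 and 373 CPM in microglia and 4.53, 3.75 and 3.70 CPM in astrocytes (log2FC −6.50 ± 0.36, adjusted p = 3.46e-18). *C1qa*, the A chain of complement C1q, had 295, 380.2 and 306 CPM in microglia and 0, 0.375 and 0 CPM in astrocytes. With 1 read in all astrocyte libraries, *C1qa* was 2653-fold higher in microglia (counting interval 476 to 104800, adjusted p = 7.51e-20, and at least 599.8-fold without astrocyte replicate 2 and 1702-fold without astrocyte replicate 3). *C1qb*, its B chain, had 106, 217 and 109.9 CPM in microglia and 0.756, 0.375 and 0.337 CPM in astrocytes (log2FC −8.07 ± 0.49, adjusted p = 3.47e-17). Microglia replicate 2 was the highest of the 3 for *Ctsd*, *C1qa* and *C1qb*, but not for *Zfp36*. *Csf1r*, the receptor on which microglial survival depends, had 139, 279 and 144 CPM in microglia and 2.27, 1.88 and 3.37 CPM in astrocytes (log2FC −6.18 ± 0.40, adjusted p = 1.57e-16), and *Cx3cr1*, the fractalkine receptor, had 129, 204 and 131 CPM in microglia and 4.91, 3.38 and 6.40 CPM in astrocytes (log2FC −4.96 ± 0.36, adjusted p = 2.64e-15). The groups were apart for both, and again replicate 2 held the highest value. The others were *Selplg*, the P-selectin ligand (log2FC −6.16), *Cd83*, an immunoglobulin-type activation marker (−6.76), *Kctd12*, a subunit of GABA-B receptor complexes (−4.77), *Apobec3*, a cytidine deaminase of antiviral defence (−4.70), *Ctsz*, cathepsin Z (−4.14), and *Laptm5*, a lysosomal membrane protein of blood cells, 587-fold higher in microglia (counting interval 162 to 4851, adjusted p = 1.02e-17). *Egr1*, *Junb* and *Jun*, transcription factors of the immediate-early response, completed the 15 genes, with log2FC of −4.14, −4.10 and −3.80. They belong with *Zfp36* to the immediate-early and dissociation list, all 27 members of which were higher in microglia.

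Function lists were then read member by member. Their counts stand beside the 13.7% and 13.3% of all genes called in either direction, and some genes belong to more than one list.

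**Figure D4:**
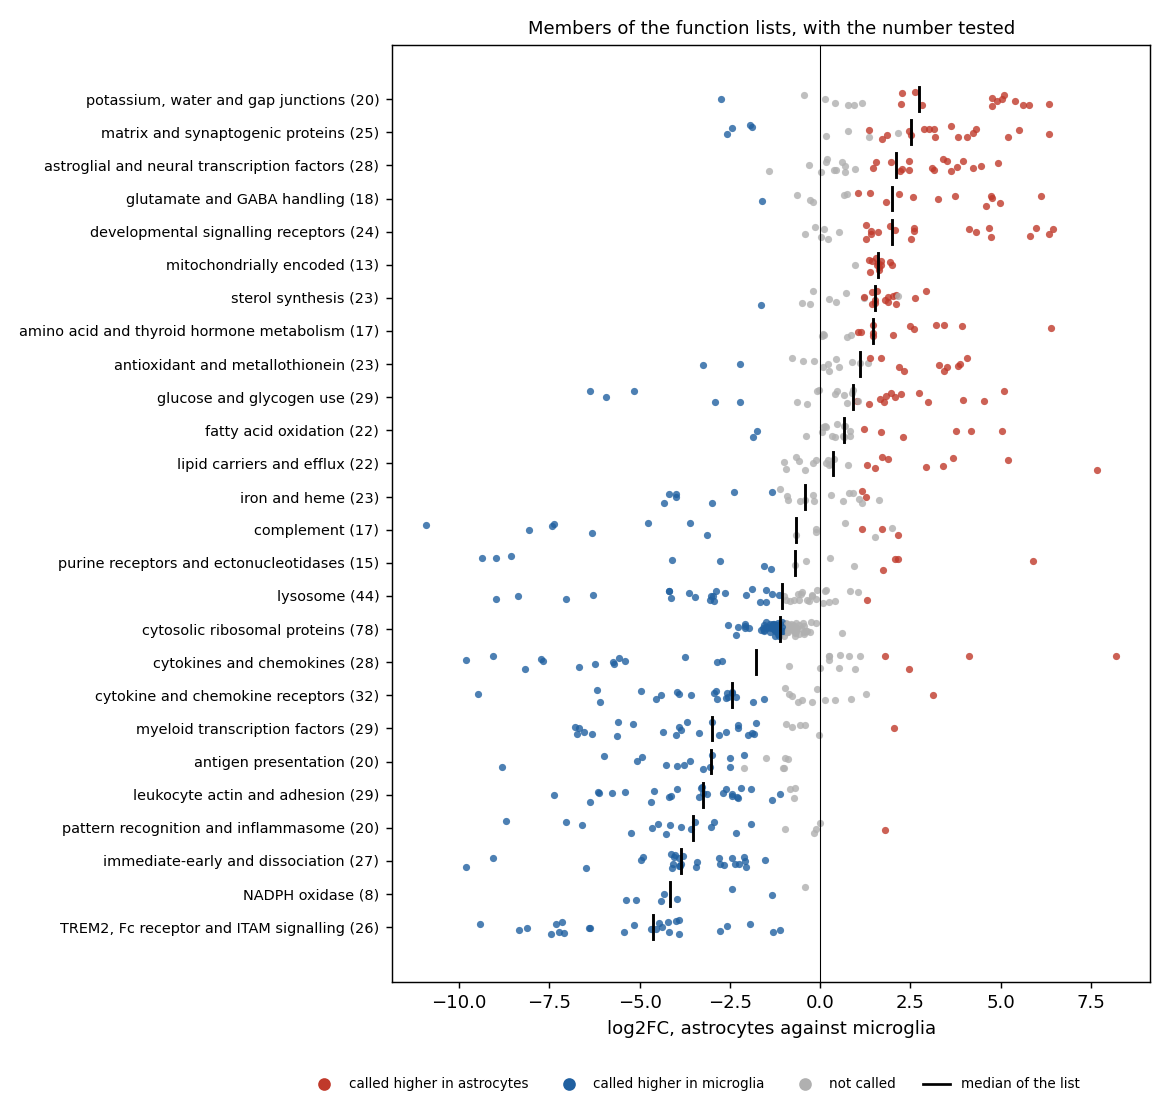
Difference between WT astrocytes and WT microglia (log2FC, positive where astrocytes were higher) for each tested member of the function lists, with the number tested in parentheses and the median as a black bar. The medians run from -4.62 in the list of TREM2, Fc receptor and ITAM signalling, where all 26 members lie to the left, to 2.73 in the list of potassium, water and gap junction genes.

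In transmitter uptake, 12 of 18 genes of glutamate and GABA handling were called higher in astrocytes and 1 higher in microglia, with a median log2FC of 2.00. Transporters led. Besides *Slc1a2* and *Slc6a11*, the list included *Slc1a3* (GLAST, log2FC 3.27 ± 0.32, adjusted p = 1.25e-11) and the glutamine exporter *Slc38a3* (4.76). The difference was smaller for *Glul*, glutamine synthetase, which converts glutamate to glutamine. Its values were 91.4, 164 and 110.4 CPM in astrocytes and 58.6, 55.3 and 62.0 CPM in microglia (log2FC 1.05 ± 0.28, adjusted p = 0.00317), so that the groups did not overlap, but *Glul* fell short of a call without astrocyte replicate 2 or microglia replicate 2. *Slc1a5*, a transporter of neutral amino acids and glutamine, went the other way (4.04, 9.22 and 3.42 CPM in microglia and 1.51, 1.5 and 2.02 CPM in astrocytes, log2FC −1.62 ± 0.49, adjusted p = 0.00954), and was not called without microglia replicate 2 or by DESeq2 (adjusted p = 0.0659). The glutamine transporters *Slc38a1* (log2FC 0.66, adjusted p = 0.0875) and *Slc38a2* (−0.20, adjusted p = 0.665) were not called.

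For potassium, water and gap junctions, 13 of 20 genes were higher in astrocytes and 1 in microglia, with a median of 2.73. *Gja1*, the gap junction protein connexin 43, had 97.5, 146 and 93.6 CPM in astrocytes and 4.04, 5.18 and 1.95 CPM in microglia (log2FC 4.91 ± 0.37, adjusted p = 1.27e-14). *Slc4a4*, a sodium bicarbonate cotransporter, had 63.5, 86.7 and 72.4 CPM in astrocytes and 1.35, 3.46 and 1.95 CPM in microglia (log2FC 5.10 ± 0.39, adjusted p = 1.41e-14). The groups were far apart for both, and astrocyte replicate 2 was the highest. *Kcnj10*, the potassium channel Kir4.1, was higher with a log2FC of 2.83. Within the sodium-potassium pump, *Atp1b1* was not called (0.77, adjusted p = 0.122), and *Fxyd5*, a pump regulator of the FXYD family, was higher in microglia (15.5, 14.4 and 11.7 CPM in microglia and 1.89, 2.25 and 2.02 CPM in astrocytes, log2FC −2.73 ± 0.38, adjusted p = 9.15e-08).

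Sterol synthesis differed by smaller amounts, and most of the genes called were higher in astrocytes. Of 23 genes, 14 were higher in astrocytes and 1 in microglia, with a median of 1.51. *Srebf2*, the master transcription factor of the pathway, had 25.3, 40.2 and 24.6 CPM in astrocytes and 8.41, 14.4 and 9.28 CPM in microglia (log2FC 1.51 ± 0.31, adjusted p = 0.000161), and *Insig1*, its membrane-bound inhibitor, had 23.8, 36.8 and 20.9 CPM in astrocytes and 6.06, 11.5 and 10.3 CPM in microglia (log2FC 1.58 ± 0.32, adjusted p = 0.000127). *Hmgcs1*, the enzyme before the rate-limiting step, had 14.7, 20.3 and 16.2 CPM in astrocytes and 5.05, 4.61 and 3.91 CPM in microglia (log2FC 1.89 ± 0.34, adjusted p = 1.48e-05). These 3 genes did not overlap between the groups. *Msmo1*, a late demethylating enzyme, was higher by 1.44 over its summed transcripts, but not on the transcript of highest mean (0.15, adjusted p = 0.835). *Ebp*, a sterol isomerase, was higher in microglia (6.06, 10.4 and 5.86 CPM in microglia and 1.13, 4.13 and 1.68 CPM in astrocytes, log2FC −1.63 ± 0.44, adjusted p = 0.00345 and −2.29 without astrocyte replicate 2), and *Lss*, which closes the sterol rings, was not called (0.72, adjusted p = 0.166). Myelinating cells also make cholesterol, and the oligodendrocyte markers given above moved with this list. Of the 15 genes called in WT, 6 were called the same way in the KIN libraries described below.

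Among lipid carriers and efflux genes, 9 of 22 were higher in astrocytes, none in microglia and 13 were not called, with a median of 0.35. *Apoe*, the main lipid carrier of the brain, had 382, 650.4 and 389.9 CPM in astrocytes and 139.7, 299 and 135 CPM in microglia (log2FC 1.31 ± 0.31, adjusted p = 0.000736). The lowest astrocyte library lay above the highest microglia library, and *Apoe* was abundant in both fractions. *Lcat*, which esterifies cholesterol on lipoproteins, was at least 22.6-fold higher in astrocytes (adjusted p = 8.82e-10). The receptor *Lrp4* (log2FC 1.73 ± 0.37, adjusted p = 0.000241) was higher in astrocytes, while *Lrp1*, the large receptor for apolipoprotein E, had 108, 136 and 112 CPM in astrocytes and 100.3, 105 and 82.6 CPM in microglia and was not called (0.31, adjusted p = 0.432). The lipoprotein receptor *Scarb1* overlapped between the groups and was not called (−0.41, adjusted p = 0.307).

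In fatty acid metabolism, 6 of 22 genes were higher in astrocytes and 2 in microglia, with a median of 0.65. The acyl-CoA synthetases, which activate fatty acids, differed most. *Acsl6* had 33.2, 58.2 and 40.1 CPM in astrocytes and 2.69, 1.73 and 2.44 CPM in microglia (log2FC 4.19 ± 0.38, adjusted p = 2.43e-12), *Acsbg1* had 38.9, 45.4 and 33.0 CPM in astrocytes and 2.69, 0 and 0 CPM in microglia (log2FC 5.03 ± 0.47, adjusted p = 5.83e-12 and 9.58 without microglia replicate 1) and *Acsl3* was higher by 3.77. None of these 3 overlapped between the groups. Of the steps of mitochondrial oxidation itself, few were called. *Cpt1a*, which admits fatty acids to mitochondria, was not called (0.69, adjusted p = 0.128), *Cpt1c*, a related neuronal form, was higher in astrocytes by 1.21 (adjusted p = 0.0188) but not without astrocyte replicate 1 or microglia replicate 2, by DESeq2 (adjusted p = 0.0924) or on its transcript of highest mean (0.31, adjusted p = 0.72), and *Oxct1*, an enzyme of ketone use, was not called (0.14, adjusted p = 0.797). *Acads*, the short-chain dehydrogenase (log2FC −1.86 ± 0.39, adjusted p = 0.000179), and *Etfa*, an electron carrier subunit (log2FC −1.75 ± 0.43, adjusted p = 0.00141), were higher in microglia.

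Glucose and glycogen use separated the fractions by isoform at some steps. Of 29 genes, 13 were higher in astrocytes, 5 in microglia and 11 were not called, with a median of 0.92. At uptake, *Slc2a1* (GLUT1) had 18.5, 23.6 and 15.8 CPM in astrocytes and 6.06, 2.88 and 6.84 CPM in microglia (log2FC 1.82 ± 0.34, adjusted p = 2.87e-05), whereas *Slc2a5* (GLUT5), a fructose transporter, had 15.5, 24.2 and 14.7 CPM in microglia and 0.756, 0 and 0 CPM in astrocytes and was 72.3-fold higher in microglia (counting interval 19.6 to 604, adjusted p = 9.6e-12, and at least 32.8-fold without astrocyte replicate 1 and 46.4-fold without astrocyte replicate 3). At the first enzymatic step, *Hk1* was higher in astrocytes (log2FC 1.34 ± 0.34, adjusted p = 0.00208), though not called on its transcript of highest mean (1.06, adjusted p = 0.107), and *Hk2* had 30.6, 36.9 and 35.2 CPM in microglia and 1.13, 0 and 0 CPM in astrocytes, 92.8-fold higher in microglia (counting interval 31.3 to 453, adjusted p = 7.44e-14, and at least 63.1-fold without astrocyte replicate 1 and 59.5-fold without astrocyte replicate 3). At lactate transport, *Slc16a1* (MCT1) was higher in astrocytes (log2FC 1.98 ± 0.51, adjusted p = 0.0022 and 2.75 without microglia replicate 1) and *Slc16a3* (MCT4) in microglia (log2FC −2.92 ± 0.52, adjusted p = 1.43e-05 and −3.70 without astrocyte replicate 2). Each of these pairs, with its transcripts summed, divided between the fractions. Neither of the lactate dehydrogenase subunits *Ldhb* (0.76) and *Ldha* (−0.65) was called. Further down, *Aldoc* stood far above in astrocytes, while *Aldoa*, the ubiquitous aldolase, was not called (0.66, adjusted p = 0.0642). *Eno1* (log2FC 1.67 ± 0.30, adjusted p = 1.48e-05) and *Pkm*, pyruvate kinase (log2FC 1.03 ± 0.30, adjusted p = 0.00599), were higher in astrocytes, the latter not without astrocyte replicate 1 or microglia replicate 2. *Gapdh* was not called (0.41, adjusted p = 0.295). *Pfkfb3*, an activator of glycolysis, was higher in microglia with 37.0, 32.3 and 40.1 CPM in microglia and 6.80, 9.38 and 7.41 CPM in astrocytes (log2FC −2.21 ± 0.30, adjusted p = 9.59e-08). *Pygb*, a glycogen phosphorylase, had 34.0, 38.3 and 30.6 CPM in astrocytes and 6.40, 5.18 and 3.42 CPM in microglia (log2FC 2.73 ± 0.33, adjusted p = 5.22e-09).

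The 7 gene pairs called in opposite directions, out of 30 pairs of related genes in which both members were tested, included 3 pairs of this pathway. The ectonucleotidase *Entpd2* had 6.42, 18.0 and 11.1 CPM in astrocytes and 0, 0 and 0.488 CPM in microglia, 79.9-fold higher in astrocytes (counting interval 14.0 to 3189, adjusted p = 3.09e-09, and 44.8-fold without microglia replicate 1 and at least 18.6-fold without microglia replicate 3), and its relative *Entpd1* (CD39) had 30.3, 30.5 and 21.5 CPM in microglia and 0.378, 2.25 and 2.02 CPM in astrocytes (log2FC −4.09 ± 0.40, adjusted p = 1.95e-11). The matrix protein *Sparcl1* was higher in astrocytes and its relative *Sparc* in microglia, with 195, 287 and 209 CPM in microglia and 51.4, 78.1 and 49.5 CPM in astrocytes (log2FC −1.95 ± 0.29, adjusted p = 4.92e-07). The peptide transporters divided into *Slc15a2* on the plasma membrane, higher in astrocytes (log2FC 2.44 ± 0.56, adjusted p = 0.00053), and *Slc15a3* on lysosomes, higher in microglia (log2FC −2.89 ± 0.40, adjusted p = 8.66e-08 and −3.54 without astrocyte replicate 3). The light-chain amino acid transporters *Slc7a10* (75.0-fold higher in astrocytes (counting interval 25.4 to 366, adjusted p = 1.87e-13, and 126-fold without microglia replicate 1)) and *Slc7a7* (13.9-fold higher in microglia (counting interval 4.37 to 70.7, adjusted p = 2.59e-05, and 26.7-fold without astrocyte replicate 3)) also divided.

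Transcription factors of each lineage were mostly confined to calls in one direction, *Bhlhe40* excepted. Of 28 astroglial and neural factors tested, 17 were higher in astrocytes and none in microglia, with a median of 2.09. *Sox9*, a factor required for astrocyte specification, had 18.1, 38.3 and 20.9 CPM in astrocytes and 1.68, 2.30 and 0 CPM in microglia (log2FC 4.22 ± 0.47, adjusted p = 4.34e-10). *Hes5*, a Notch target, had 15.5, 27.4 and 15.2 CPM in astrocytes and 0.673, 0 and 0.977 CPM in microglia (log2FC 4.92 ± 0.51, adjusted p = 8.85e-11), and *Id4*, an inhibitor of bHLH factors, had 14.7, 27.4 and 15.5 CPM in astrocytes and 1.35, 0.576 and 1.95 CPM in microglia (log2FC 3.80 ± 0.44, adjusted p = 1.39e-09). None of these 3 overlapped, and all were lowest in microglia. *Zbtb20*, a zinc finger repressor, differed less (37.4, 43.5 and 35.4 CPM in astrocytes and 13.1, 12.7 and 14.2 CPM in microglia, log2FC 1.54 ± 0.29, adjusted p = 4.09e-05). *Nfia*, the gliogenic nuclear factor I A, overlapped between the groups and was not called (48.7, 66.1 and 47.8 CPM in astrocytes and 40.4, 64.5 and 40.1 CPM in microglia, adjusted p = 0.704), and *Zic5* was not called (−0.30, adjusted p = 0.512).

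Of 29 myeloid factors, 23 were higher in microglia and 1 in astrocytes, with a median of -3.0. *Spi1*, which encodes PU.1, the factor that establishes the myeloid lineage, was 151-fold higher in microglia (counting interval 26.6 to 6004, adjusted p = 5.02e-12, and at least 34.1-fold without astrocyte replicate 2 and 96.7-fold without astrocyte replicate 3), with 15.2, 29.9 and 12.7 CPM in microglia and 0, 0.375 and 0 CPM in astrocytes. *Cebpa*, a partner of PU.1, had 75.4, 129.6 and 67.4 CPM in microglia and 3.40, 2.25 and 1.68 CPM in astrocytes (log2FC −5.19 ± 0.39, adjusted p = 6.92e-15). *Irf8*, an interferon regulatory factor of microglial development, had 43.8, 46.7 and 39.6 CPM in microglia and 0.756, 0.751 and 1.01 CPM in astrocytes (log2FC −5.60 ± 0.42, adjusted p = 6.92e-15). *Maf* was higher in microglia too, with a log2FC of −3.98. *Bhlhe40*, a circadian repressor, was the exception, with 6.04, 10.1 and 7.75 CPM in astrocytes and 3.03, 1.15 and 0.977 CPM in microglia (log2FC 2.04 ± 0.45, adjusted p = 0.000308 and 2.93 without microglia replicate 1). *Stat3* (−0.79, adjusted p = 0.0471) and *Bhlhe41* (−0.57, adjusted p = 0.217) were not called, the former having a difference below the limit of 1.

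Signalling through immunoreceptor tyrosine-based activation motifs (ITAM), by which TREM2 and Fc receptors act, differed in one direction throughout. All 26 genes tested of 27 were higher in microglia, with a median of -4.62, or -4.40 where genes with 0 reads in astrocytes were set to their bound, and *Fcgr4* did not reach the read limit. At the receptors, *Trem2*, a receptor for lipids and lipoproteins, had 86.2, 169.9 and 85 CPM in microglia and 0.378, 0 and 0.673 CPM in astrocytes, 296-fold higher in microglia (counting interval 101 to 1440, adjusted p = 1.03e-16, and 570.1-fold without astrocyte replicate 3). *Tyrobp* (DAP12), its signalling adaptor, had 38.0, 124 and 35.7 CPM in microglia and 0, 0.375 and 0.673 CPM in astrocytes, 164-fold higher in microglia (counting interval 55.7 to 798, adjusted p = 4.47e-14, and 315-fold without astrocyte replicate 3 and 102-fold without microglia replicate 2). Microglia replicate 2 held the highest value of both, and for *Tyrobp* more than 3 times that of the other microglia libraries. *Fcgr3*, a low-affinity IgG receptor, had 41.7, 91.6 and 36.1 CPM in microglia and 0.378, 0.375 and 0.337 CPM in astrocytes, 146-fold higher in microglia (counting interval 49.5 to 711, adjusted p = 5.61e-15). Downstream, the kinase *Syk* was 48.6-fold higher in microglia (counting interval 16.2 to 239, adjusted p = 6.08e-12, and 99.0-fold without astrocyte replicate 2 and 31.2-fold without astrocyte replicate 3) and the phospholipase *Plcg2* was 29.0-fold higher in microglia (counting interval 9.54 to 144, adjusted p = 1.41e-08, and at least 19.7-fold without astrocyte replicate 2 and 18.6-fold without astrocyte replicate 3). *Inpp5d* (SHIP1), a lipid phosphatase that restrains the pathway, had 43.8, 47.8 and 42.5 CPM in microglia and 0.378, 0.375 and 0.673 CPM in astrocytes (log2FC −6.39 ± 0.45, adjusted p = 2.25e-15).

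Promoters of the genes tested were searched for the letters GAGGAAGT, a core of the known PU.1 site, on both strands. RefSeq windows from 250 bases before to 50 bases after each start (GRCm38.p6, an older build than that of the counts) were matched by symbol for 9093 of the 12157 genes, 11801 windows in all. The letters were in 3.02% of all windows, in 5.70% of the windows of genes called higher in microglia (92 of 1614) and in 1.33% of those called higher in astrocytes (23 of 1727). Among genes that differed by a log2FC of 3 or more, the shares were 9.52% (40 of 420) and 1.16% (5 of 431). Of the 27 genes of the ITAM list, 22 had a window, and 4 of these held the letters. These 4 stretches of 60 bases are shown because they carry the match in a list that differed in one direction throughout, each read 5′ to 3′ on the strand of its gene with the match in capitals. In *Pik3cg*, a lipid kinase (at least 21.2-fold higher in microglia (adjusted p = 1.1e-08)), the match lies on the opposite strand. *Pirb* is a receptor with inhibitory motifs (log2FC −1.95) and *Vav1* an activator of small GTPases (99.9-fold higher in microglia (counting interval 27.2 to 832, adjusted p = 2.65e-13, and at least 45.2-fold without astrocyte replicate 2 and 64.1-fold without astrocyte replicate 3)).
*Inpp5d*, chr1:87620252-87620311, plus strand: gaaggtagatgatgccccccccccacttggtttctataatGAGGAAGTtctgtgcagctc
*Pirb*, chr7:3720469-3720528, minus strand: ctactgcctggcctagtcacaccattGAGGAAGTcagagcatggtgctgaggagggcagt
*Pik3cg*, chr12:32208628-32208687, minus strand: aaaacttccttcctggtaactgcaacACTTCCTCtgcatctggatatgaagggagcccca
*Vav1*, chr17:57279040-57279099, plus strand: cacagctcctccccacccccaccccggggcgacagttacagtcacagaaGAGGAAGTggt

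The match began 20 bases before the start in *Inpp5d*, 120 in *Pirb*, 191 in *Pik3cg* and 11 in *Vav1*. None of the windows of 21 astrocyte markers held it, and 2 of 14 microglia markers did. The wider ETS letters GGAAGTG, which overlap those of PU.1, were in 13.6% of all windows, 17.5% of those higher in microglia and 7.53% of those higher in astrocytes. The AP-1 letters TGAGTCA were in 3.75%, 3.90% and 3.88% in the same order, and the SOX letters ACAATGG in 2.17%, 1.98% and 2.49%. The ETS and IRF composite was in 2.28%, 2.54% and 1.56%, the interferon response repeat in 2.94%, 3.47% and 2.32%, and the cAMP response letters TGACGTCA in 2.89%, 2.66% and 1.74%. The sterol response letters TCACNCCAC were in 1.08%, 0.929% and 1.39%. Among genes that differed by a log2FC of 3 or more, the interferon response repeat was in 4.76% of windows higher in microglia and 1.62% of those higher in astrocytes, and the sterol response letters in 1.19% and 3.02%. The sites of NFI, of RFX and of the serum response factor were in fewer than 1% of all windows. A match of letters is a description of the window and not evidence of binding, and a part of PU.1 in these differences was not tested.

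Of 17 complement genes tested, 8 were higher in microglia, 3 in astrocytes and 6 were not called, with a median of -0.66. Over protein-coding transcripts alone, 15 were tested, with 8 higher in microglia, 2 in astrocytes and a median of -3.15. The initiating C1q chains *C1qa*, *C1qb* and *C1qc* were all higher in microglia, *C1qc* with 71.0, 138 and 67.9 CPM in microglia and 0.756, 0 and 0.673 CPM in astrocytes (log2FC −7.43 ± 0.50, adjusted p = 4.13e-16). The receptors *C3ar1* (31.9-fold higher in microglia (counting interval 8.39 to 270.2, adjusted p = 5.99e-08)) and *C5ar1* (at least 11.0-fold higher in microglia (adjusted p = 1.38e-05)) were on the same side. *C4b*, which follows C1 in the cascade, was higher in astrocytes, with 11.0, 18.0 and 12.8 CPM in astrocytes and 2.69, 9.79 and 7.33 CPM in microglia (log2FC 1.17 ± 0.36, adjusted p = 0.0101), although not without astrocyte replicate 2 or microglia replicate 1, nor by DESeq2 (adjusted p = 0.0674). The inhibitors *Cd46* (13.2, 13.5 and 8.76 CPM in astrocytes and 1.01, 6.34 and 4.40 CPM in microglia, log2FC 1.73 ± 0.40, adjusted p = 0.000683) and *Csmd1* (log2FC 2.16 ± 0.62, adjusted p = 0.00634 and 4.00 without microglia replicate 1), which lost its call without astrocyte replicate 1, went with *C4b*. The membrane inhibitor *Cd59a* was not called (−0.10, adjusted p = 0.874), nor was *Cr1l* (−0.66, adjusted p = 0.237). *C3* itself did not reach the read limit.

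Antigen presentation was higher in microglia for 14 of 20 genes, with none higher in astrocytes and a median of -3.02. *B2m*, the light chain of class I molecules, had 61.3, 109 and 60.6 CPM in microglia and 2.65, 7.88 and 4.04 CPM in astrocytes (log2FC −3.97 ± 0.36, adjusted p = 2.26e-12). The class I heavy chains *H2-K1* (log2FC −3.0 ± 0.31, adjusted p = 8.62e-11) and *H2-D1* (log2FC −2.50 ± 0.33, adjusted p = 3.18e-08) were higher as well, and the loading protein *Tapbp* had 31.0, 35.7 and 30.3 CPM in microglia and 9.45, 7.13 and 5.72 CPM in astrocytes. *H2-Q4* (−0.99, adjusted p = 0.0123) and *H2-T23* (−0.88, adjusted p = 0.0381) did not reach a log2FC of 1. Reads of these closely related heavy chains may have been assigned among them with uncertainty. For class II, *Cd74*, the invariant chain, was at least 61.3-fold higher in microglia (adjusted p = 4.71e-13), with 23.2, 31.1 and 13.2 CPM in microglia and 0 CPM in all 3 libraries in astrocytes.

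Pattern recognition followed the same side, with 15 of 20 genes higher in microglia and 1 in astrocytes, and a median of -3.52. *Unc93b1*, which carries Toll-like receptors to endosomes, had 109, 132 and 112 CPM in microglia and 1.89, 0.375 and 0.337 CPM in astrocytes (log2FC −7.03 ± 0.44, adjusted p = 8.13e-17 and −8.17 without astrocyte replicate 1). *Cd14*, the co-receptor for lipopolysaccharide, had 14.5, 34.0 and 15.1 CPM in microglia and 0 CPM in all 3 libraries in astrocytes and was at least 54.4-fold higher in microglia (adjusted p = 2.06e-12). Neither overlapped. *Ly86*, a partner of a Toll-like receptor homologue, was higher in microglia (log2FC −3.03), and *Sting1*, the sensor of cyclic dinucleotides, was higher in microglia as well (log2FC −4.48 ± 0.50, adjusted p = 5.75e-10 and −5.15 without astrocyte replicate 2). *Il18* was the exception, with 7.18, 9.38 and 5.72 CPM in astrocytes and 2.02, 4.03 and 0.488 CPM in microglia (log2FC 1.80 ± 0.46, adjusted p = 0.00181), but was not called on its transcript of highest mean (adjusted p = 0.101). *Tlr3*, the sensor of double-stranded RNA (−0.12, adjusted p = 0.887), and *Tirap*, an adaptor (−0.17, adjusted p = 0.796), were not called. The superoxide-producing NADPH oxidase was higher in microglia for 7 of 8 genes, with a median of -4.15. *Cyba*, its membrane subunit, had 44.4, 58.8 and 39.1 CPM in microglia and 2.27, 2.25 and 2.02 CPM in astrocytes (log2FC −4.41 ± 0.37, adjusted p = 1.61e-13), and the cytosolic subunit *Ncf1* (log2FC −3.96 ± 0.38, adjusted p = 1.1e-11), the GTPase *Rac2* (log2FC −1.34 ± 0.32, adjusted p = 0.00109) and the proton channel *Hvcn1* (log2FC −4.33 ± 0.45, adjusted p = 1.1e-10) went with it. *Nox4*, a constitutive oxidase, was not called (−0.42, adjusted p = 0.692).

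Among cytokines and chemokines, 14 of 28 genes tested were higher in microglia, 4 in astrocytes and 10 were not called, with a median of -1.79 (-0.61 without microglia replicate 2). *Ccl4* had 50.1, 42.0 and 40.5 CPM in microglia and 0 CPM in all 3 libraries in astrocytes and *Ccl3* had 22.2, 32.3 and 25.4 CPM in microglia and 0 CPM in all 3 libraries in astrocytes. Both chemokines, which are also members of the dissociation list, were without a read in astrocytes, *Ccl4* being at least 125-fold higher in microglia (adjusted p = 1.15e-15) and *Ccl3* at least 71.1-fold higher in microglia (adjusted p = 3.54e-14). *Tnf*, the tumour necrosis factor, had 22.6, 35.7 and 19.1 CPM in microglia and 0.378, 0.751 and 0.337 CPM in astrocytes (log2FC −5.58 ± 0.48, adjusted p = 5.38e-13). *Pdgfb*, a platelet-derived growth factor, was higher in microglia (log2FC −3.74). On the side of astrocytes stood *Vegfa*, the vascular growth factor (22.7, 42.4 and 20.9 CPM in astrocytes and 5.72, 4.03 and 5.37 CPM in microglia, log2FC 2.47 ± 0.35, adjusted p = 1.78e-07), *Cxcl14*, a homeostatic chemokine (15.1, 19.1 and 9.77 CPM in astrocytes and 0 CPM in all 3 libraries in microglia, at least 32.6-fold higher in astrocytes (adjusted p = 4.82e-11)), and *Il33*, an alarmin (20.0-fold higher in astrocytes (counting interval 5.25 to 169.6, adjusted p = 3.07e-06)). *Csf1*, a ligand of CSF1R, was higher in microglia by less than the limit (13.5, 9.22 and 10.3 CPM in microglia and 5.29, 6.00 and 7.07 CPM in astrocytes, log2FC −0.86, adjusted p = 0.0408).

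*Tgfb1*, the transforming growth factor that maintains microglial identity, was not called by its symbol (log2FC 0.24, adjusted p = 0.606), but 99.9% of its reads lay on a single transcript with a retained intron, ENSMUST00000206348, with 20252, 38372 and 24107 reads in astrocytes and 28411, 13057 and 17111 reads in microglia. The coding transcript ENSMUST00000002678 had 1, 1 and 2 reads in astrocytes and 65, 68 and 46 reads in microglia. Counted over protein-coding transcripts alone, *Tgfb1* was higher in microglia, with a log2FC of -5.70 ± 0.50 (adjusted p = 1.29e-13). The value for the symbol therefore described the retained-intron transcript.

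The receptors for such signals were more one-sided, with 20 of 32 higher in microglia, 1 in astrocytes and a median of -2.43. After *Csf1r*, *Cx3cr1* and *Mertk*, a receptor for apoptotic cells (111, 90.4 and 87.0 CPM in microglia and 11.7, 28.5 and 13.1 CPM in astrocytes, log2FC −2.44 ± 0.31, adjusted p = 2.06e-08), *Tgfbr1* had 42.1, 58.8 and 47.4 CPM in microglia and 2.27, 1.13 and 2.69 CPM in astrocytes (log2FC −4.55 ± 0.37, adjusted p = 1.18e-13). *Tgfbr2*, its partner, was higher in microglia (log2FC −2.87). *Tyro3*, a relative of *Mertk*, was the single gene on the side of astrocytes, with 15.9, 19.1 and 15.8 CPM in astrocytes and 2.36, 0 and 2.93 CPM in microglia (log2FC 3.12 ± 0.42, adjusted p = 5.93e-08). The interferon gamma receptor chain *Ifngr2* (0.14, adjusted p = 0.753) and the shared receptor *Il6st* (−0.97, adjusted p = 0.0143) were not called.

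Of 35 pairs of ligand and receptor, 28 had both genes tested. In 2 pairs the ligand was higher in astrocytes and the receptor in microglia, namely *Apoe* and *Clu* with *Trem2*, and in 1 the reverse held, *Pdgfb* with *Pdgfrb* (log2FC 2.83 ± 0.46, adjusted p = 3.08e-06), a receptor that also marks pericytes. *Tnf* was on the same side as its receptors *Tnfrsf1a* (−2.43) and *Tnfrsf1b* (98.1-fold higher in microglia (counting interval 17.1 to 3922, adjusted p = 1.21e-10, and at least 22.2-fold without astrocyte replicate 2 and 62.9-fold without astrocyte replicate 3)), as was *Pros1* (−2.86) with *Mertk*. On the astrocyte side, *Jag1* (2.38) went with *Notch1* (log2FC 1.61 ± 0.31, adjusted p = 4.96e-05), and *Ptn* (log2FC 3.82 ± 0.45, adjusted p = 2.95e-09 and 4.72 without microglia replicate 1) and *Mdk* (3.40) with their receptor *Ptprz1* (4.31). The receptor alone was called for *Csf1* and *Il34* (0.98, adjusted p = 0.345) with *Csf1r*, for *Cx3cl1* (0.57, adjusted p = 0.321) with *Cx3cr1*, for *Gas6* (0.01, adjusted p = 0.985) with *Mertk*, for *Tgfb1*, by its symbol, and *Tgfb2* (1.10, adjusted p = 0.304) with *Tgfbr1* and *Tgfbr2*, for *Psap* with *Gpr37l1*, for *Bmp7* (1.31, adjusted p = 0.14) with *Bmpr1b* (at least 6.25-fold higher in astrocytes (adjusted p = 0.000381)), and for *Nrg1* (−0.23, adjusted p = 0.794) with *Erbb2* (at least 7.07-fold higher in astrocytes (adjusted p = 0.000144)). The ligand alone was called for *Il33* with *Il1rl1* (−0.85, adjusted p = 0.376), *Jag1* with *Notch2* (0.02, adjusted p = 0.971), *Apoe* with *Lrp1*, and *Vegfa* with *Flt1* (0.79, adjusted p = 0.111), an endothelial receptor. Neither gene was called in the 4 remaining pairs (*Gas6* with *Axl*, *Cxcl12* with *Cxcr4*, *Lif* with *Lifr* and *Pdgfa* with *Pdgfra*).

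Receptors of development and growth factors were the counterpart in astrocytes, with 18 of 24 higher there, none in microglia and a median of 2.00. *Gpr37l1*, a glial receptor of the endothelin receptor-like family, had 108, 154 and 102 CPM in astrocytes and 1.01, 1.73 and 1.47 CPM in microglia (log2FC 6.45 ± 0.42, adjusted p = 1.67e-16). *Ntrk2*, the receptor for brain-derived neurotrophic factor, had 58.6, 79.9 and 65.7 CPM in astrocytes and 15.8, 6.91 and 11.7 CPM in microglia (log2FC 2.52 ± 0.31, adjusted p = 8.71e-09), and *Adgrb1*, an adhesion receptor of phagocytosis and synapses, had 42.3, 50.3 and 47.5 CPM in astrocytes and 15.2, 7.49 and 13.2 CPM in microglia (log2FC 1.93 ± 0.30, adjusted p = 1.43e-06). The groups did not overlap for any of these 3 genes. *Adgrg1* (0.53, adjusted p = 0.188) and *Bmpr2* (−0.42, adjusted p = 0.32) were not called.

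Matrix and synaptogenic proteins were higher in astrocytes for 17 of 25 genes tested and in microglia for 4, with a median of 2.53. Besides *Sparcl1*, *Bcan*, the proteoglycan brevican of perineuronal matrix, had 102, 157 and 96.3 CPM in astrocytes and 2.02, 1.73 and 3.91 CPM in microglia (log2FC 5.52 ± 0.39, adjusted p = 2.25e-15). *Ptprz1*, a receptor phosphatase with chondroitin sulphate chains, had 45.7, 66.8 and 47.8 CPM in astrocytes and 3.03, 1.73 and 2.93 CPM in microglia, and *Ncam1*, the neural cell adhesion molecule, had 43.1, 60 and 51.5 CPM in astrocytes and 7.07, 6.34 and 7.33 CPM in microglia (log2FC 2.88 ± 0.32, adjusted p = 4.63e-10). Groups were separate for all these genes. *Sparc*, *Mertk* and *Timp2*, an inhibitor of metalloproteinases (log2FC −1.89 ± 0.32, adjusted p = 6.55e-06), were higher in microglia. *Nlgn2* (0.76, adjusted p = 0.0791) and *Tnr* (0.18, adjusted p = 0.842) were not called.

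Lysosomal genes were higher in microglia for 22 of 44, in astrocytes for 1, and not called for 21, with a median of -1.06. *Ctsd*, *Ctsz* and *Laptm5* led as given above. *Gaa*, which degrades glycogen in lysosomes, was higher in astrocytes with 23.1, 18.8 and 16.8 CPM in astrocytes and 8.75, 6.34 and 8.30 CPM in microglia (log2FC 1.30 ± 0.31, adjusted p = 0.00104), though not on the transcript of highest mean (0.98, adjusted p = 0.0605). *Psap*, the precursor of the saposins, was abundant in both with 90.3, 121 and 84.2 CPM in astrocytes and 127, 191 and 109 CPM in microglia and was not called (−0.53, adjusted p = 0.164). *Arsb*, a sulphatase, was not called either (0.84, adjusted p = 0.0705), with values that ranged widely within each group (97.5, 38.7 and 174 CPM in astrocytes and 75.7, 24.8 and 71.8 CPM in microglia).

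Purine signalling was divided between the fractions. Of 15 genes tested, 7 were higher in microglia and 4 in astrocytes, with a median of -0.70. Over protein-coding transcripts alone, 14 were tested, with 8 higher in microglia, 5 in astrocytes and a median of -1.71. The 5 nucleotide receptors tested were higher in microglia, whereas the ectonucleotidases *Entpd1* and *Entpd2* given above fell on opposite sides. *P2ry12*, by which microglia sense ADP, had 25.6, 47.8 and 26.9 CPM in microglia and 0 CPM in all 3 libraries in astrocytes, at least 87.5-fold higher in microglia (adjusted p = 2.3e-14). *P2ry13* had 21.9, 32.3 and 21.5 CPM in microglia and 0 CPM in all 3 libraries in astrocytes, at least 67.4-fold higher in microglia (adjusted p = 6.38e-14), and *P2ry6*, the UDP receptor of phagocytosis, had 14.1, 28.8 and 14.7 CPM in microglia and 0 CPM in all 3 libraries in astrocytes, at least 49.9-fold higher in microglia (adjusted p = 2.08e-12). On the side of astrocytes stood *Adora1*, the adenosine A1 receptor (11.7, 10.1 and 12.1 CPM in astrocytes and 2.36, 1.73 and 3.42 CPM in microglia, log2FC 2.15 ± 0.39, adjusted p = 1.6e-05), and *Enpp2*, autotaxin (33.2, 41.3 and 36 CPM in astrocytes and 14.5, 13.8 and 3.91 CPM in microglia, log2FC 1.76 ± 0.33, adjusted p = 3.11e-05), which oligodendrocytes and choroid plexus also make. The enzymes *Pnp* (−0.40, adjusted p = 0.365) and *Adk* (0.95, adjusted p = 0.0507) were not called by symbol, but over protein-coding transcripts alone *Pnp* was called in microglia (-1.53, adjusted p = 0.00245) and *Adk* in astrocytes (1.85, adjusted p = 0.00511).

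Leukocyte actin and adhesion genes were higher in microglia for 26 of 29, with none higher in astrocytes and a median of -3.24. *Selplg* led, and *Cotl1*, an F-actin binding protein, had 50.1, 74.9 and 54.2 CPM in microglia and 5.67, 7.13 and 4.71 CPM in astrocytes (log2FC −3.34 ± 0.32, adjusted p = 1.43e-11). *Itgb5*, an integrin chain, was higher in microglia (log2FC −2.43) and *Cyth4*, an exchange factor of blood cells, (log2FC −3.97). *Itga6* (−0.73, adjusted p = 0.0649) and *Cdc42se1* (−0.70, adjusted p = 0.21) were not called.

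Of 23 iron and heme genes, 7 were higher in microglia and 2 in astrocytes, the latter a share below that of all genes, with a median of -0.41. *Ftl1*, the light chain, had 174, 237 and 154 CPM in microglia and 24.9, 26.3 and 19.5 CPM in astrocytes (log2FC −3.0 ± 0.30, adjusted p = 3.46e-11). *Fth1*, the heavy chain, had 89.2, 127 and 88.9 CPM in astrocytes and 44.1, 76.6 and 42.5 CPM in microglia and a log2FC of 0.91 (adjusted p = 0.0133), below the limit. *Slc40a1*, the iron exporter ferroportin (log2FC −4.0 ± 0.47, adjusted p = 2.09e-09), *Slc25a37*, the mitochondrial iron importer (log2FC −2.37 ± 0.38, adjusted p = 2.1e-06), and *Hpgds*, the prostaglandin D synthase of blood cells (log2FC −4.33 ± 0.38, adjusted p = 6.78e-13), were higher in microglia. *Hpgds* is counted in the list although it encodes an enzyme of prostaglandin synthesis. *Trf*, transferrin, was higher in astrocytes (122, 197 and 134 CPM in astrocytes and 51.5, 104 and 48.4 CPM in microglia, log2FC 1.16 ± 0.30, adjusted p = 0.00215), but not without astrocyte replicate 2 or microglia replicate 3, and it is also made by oligodendrocytes. *Slc39a14*, a metal importer, was called in astrocytes (1.27, adjusted p = 0.0389) and lost its call without any of 4 of the 6 libraries (astrocyte replicate 1 or 3, microglia replicate 2 or 3) and by DESeq2 (adjusted p = 0.161).

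Of 23 antioxidant genes, 10 were higher in astrocytes and 2 in microglia, with a median of 1.11. The metallothioneins, which bind zinc and copper, led, *Mt3* with 48.4, 74.7 and 53.5 CPM in astrocytes and 4.04, 2.30 and 5.86 CPM in microglia (log2FC 3.82 ± 0.36, adjusted p = 4.55e-12) and *Mt1* with 40.8, 69.1 and 44.8 CPM in astrocytes and 4.04, 4.61 and 4.88 CPM in microglia (log2FC 3.51 ± 0.35, adjusted p = 2.19e-11). *Mt2* was higher by 4.07 and the peroxiredoxin *Prdx6* by 3.31. *Gpx1*, a glutathione peroxidase, was higher in microglia with 24.9, 52.4 and 24.4 CPM in microglia and 4.16, 3.00 and 3.37 CPM in astrocytes (log2FC −3.23 ± 0.36, adjusted p = 7.32e-10), as was *Nfe2l2* (NRF2), the factor that induces antioxidant genes (log2FC −2.20 ± 0.41, adjusted p = 3.21e-05 and −3.0 without astrocyte replicate 3). *Gpx4* (0.23, adjusted p = 0.605) and *Sod1* (0.87, adjusted p = 0.0327) were not called. In the metabolism of amino acids and thyroid hormone, 12 of 17 genes were higher in astrocytes and none in microglia, with a median of 1.46. *Phgdh*, the first enzyme of serine synthesis, had 23.1, 35.3 and 26.6 CPM in astrocytes and 7.07, 16.1 and 8.30 CPM in microglia (log2FC 1.48 ± 0.32, adjusted p = 0.000304), *Gatm*, an enzyme of creatine synthesis, was higher by 1.46, and *Aldh1l1*, a folate enzyme and astrocyte marker, had 16.2, 21.0 and 13.1 CPM in astrocytes and 0, 0 and 0.488 CPM in microglia, 113-fold higher in astrocytes (counting interval 19.9 to 4477, adjusted p = 1.78e-11, and 63.0-fold without microglia replicate 1 and at least 26.1-fold without microglia replicate 3). *Hadhb* (0.09, adjusted p = 0.882) and *Mccc1* (0.04, adjusted p = 0.962) were not called.

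Of the 13 genes encoded by the mitochondrial genome, 12 were higher in astrocytes, with a median of 1.61. *mt-Nd4*, a subunit of complex I, had 203, 339 and 204 CPM in astrocytes and 74.0, 110 and 60.6 CPM in microglia (log2FC 1.61 ± 0.30, adjusted p = 2.32e-05), *mt-Cytb* of complex III was higher by 1.63, and *mt-Co2* and *mt-Co1* of complex IV by 1.58 and 1.63. *mt-Nd5* was just below the limit (0.96, adjusted p = 0.00651). Cytosolic ribosomal protein genes were higher in microglia for 44 of 78, with none higher in astrocytes and a median of -1.12. This count rested on the library that stood apart, since 23 were called without microglia replicate 2, with a median of -0.79. *Rplp1*, a stalk protein, was the most distinct of those named, with 89.9, 124 and 96.2 CPM in microglia and 15.5, 21.4 and 15.5 CPM in astrocytes (log2FC −2.56 ± 0.30, adjusted p = 1.58e-09). *Rpl10* (−1.12) and *Rpl12* (−1.18) were higher in microglia as well, and *Rps12* (−0.71, adjusted p = 0.0543) was not called. Over protein-coding transcripts alone, however, *Rps12* was called in microglia (-2.50 ± 0.35, adjusted p = 5.74e-08), its symbol having 57.4% of its reads on a retained-intron transcript. For *Rpl10*, with 99.5% on such a transcript, the coding value was -1.74 (adjusted p = 0.000697). Reads of ribosomal protein genes may be shared with their many processed copies, and those of *Rpl12* lay almost wholly on transcripts without a coding annotation, its coding transcripts having 2 to 7 reads per library. Over protein-coding transcripts alone, 49 of the 78 were called higher in microglia, with a median of -1.25.

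Splitting symbols into transcripts gave 16451 transcripts tested, of which 4890 (29.7%) were called. For 20 symbols (5 by DESeq2), transcripts were called in opposite directions. *Msn*, which encodes the membrane-actin linker moesin, had transcript ENSMUST00000135027 higher in astrocytes (log2FC 1.04) and transcript ENSMUST00000117399 higher in microglia (-2.69). *Csdc2*, an RNA-binding protein, had its coding transcript ENSMUST00000038757 higher in astrocytes (3.14, 7, 14 and 13 reads against 1, 1 and 1) and its retained-intron transcript ENSMUST00000152678 higher in microglia (-1.45). Of the transcripts concerned, 17 of those higher in astrocytes and 8 of those higher in microglia were annotated as protein-coding, and 11 of those higher in microglia as having a retained intron. Counts over protein-coding transcripts could be compared with counts over symbols for 9879 genes. Of these, 2691 were called the same way in both, 313 by symbol only, 262 by coding transcripts only and 3 in opposite directions. Of the genes named above, *Slc38a1* (1.18), *Cpt1a* (1.15) and *Fth1* (1.08) were called higher in astrocytes over coding transcripts but not by symbol, and *H2-Q4* (-1.11), *Il6st* (-1.11), *Itga6* (-1.10) and *Stat3* (-1.08) higher in microglia. *Pkm* (0.96) and *Rpl12* (-1.05) were called by symbol only. *Apobec3* and *Hpgds* had most of their reads on a retained-intron transcript, and their coding values (-2.71 and -2.63) were called in microglia as well. The values of *Scarb1* and *Nox4* likewise came mostly from transcripts without coding annotation, and their coding transcripts had too few reads to be tested.

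The same contrast in KIN libraries showed how far the differences recurred in mice with the mutation. There, 11783 genes were tested and 4580 (38.9%) were called. Of the 3130 genes called in WT and tested in KIN, 2483 (79.3%) were called the same way, 7 the other way and 640 not. Of 13277 genes in a fit of both genotypes, 152 (1.14%) had a difference between astrocytes and microglia that depended on genotype, and 61 of these were among the genes called in WT. DESeq2 called 40 genes, and leaving out 1 library gave 69 to 300. On simulated counts the edgeR test of the dependence on genotype recovered 77 of 192 planted changes of 2 on the log2 scale. In 22 of the 61 the WT log2FC minus the KIN log2FC had the sign of the WT log2FC. These include genes that reversed in KIN, where the difference could be larger than in WT, as for *Apoe*. The 7 genes called in opposite directions were *Apoe*, *Dok5*, *Fam20c*, *Hoxc9*, *Ryr1*, *Serpini1* and *Xkrx*, each also called for the dependence on genotype. On the common scale of the 12 libraries, *Apoe* had 375, 619 and 383 CPM in WT astrocytes, 129, 275 and 126 CPM in WT microglia, 459, 449 and 437 CPM in KIN astrocytes and 1858, 1457 and 1226 CPM in KIN microglia. The WT log2FC was 1.31 and the KIN log2FC -1.74, a difference of 3.14 (adjusted p = 1.22e-07). In WT the astrocyte libraries were higher, and in KIN the microglia libraries.

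**Figure D5:**
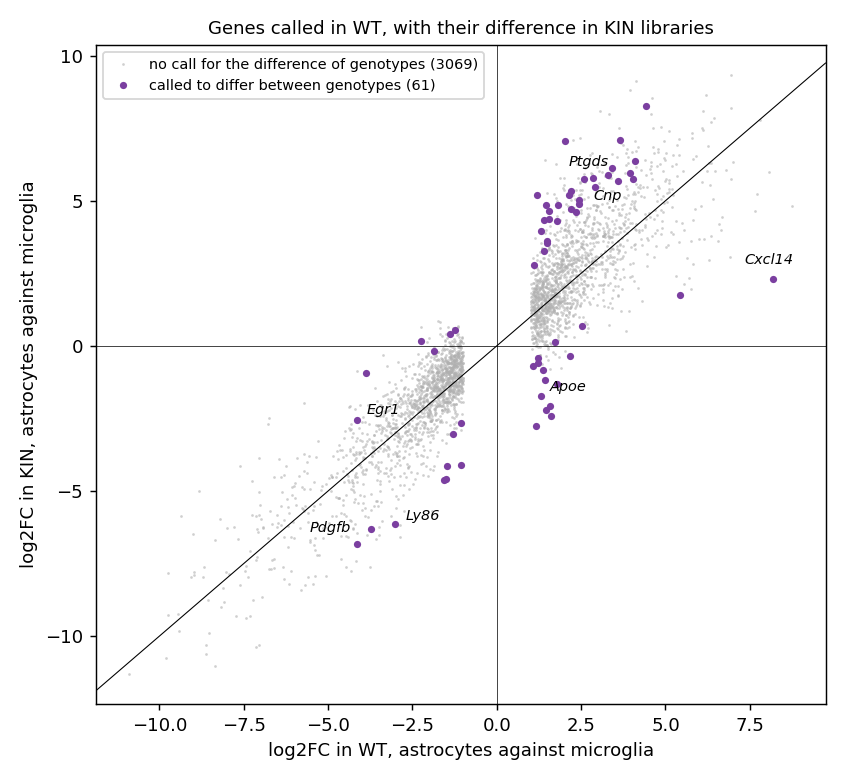
Difference between astrocytes and microglia (log2FC) in KIN against that in WT for the 3130 genes called in WT and tested in KIN, 1 point per gene, with the diagonal of equal values. Most genes lie near the diagonal, and the 61 genes called to differ between genotypes (purple) include *Apoe*, which lies below 0 in KIN.

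At the other end, some symbols with many reads did not separate the fractions. The 5 genes with the smallest difference among those with a mean of at least 100 CPM were *Grip2*, *Tbrg4*, *Ctrc*, *Ptcd3* and *Rack1*, with log2FC of −0.01, −0.02, 0.03, 0.04 and −0.04. As with *Tgfb1*, these values describe transcripts other than the coding mRNA. Retained-intron transcripts held 99.6% of the reads of *Tbrg4*, 99.0% of those of *Ptcd3* and 74.0% of those of *Rack1*, a transcript subject to nonsense-mediated decay held 99.9% of those of *Grip2*, and 1 without a defined coding sequence 100% of those of *Ctrc*. The symbol *Ptcd3* had 203, 204 and 198 CPM in astrocytes and 199.6, 207 and 184 CPM in microglia, an even level, but 0 to 2 reads per library on its coding transcripts. *Rack1* had 1418, 1635 and 1399 CPM in astrocytes and 992, 2502 and 1101 CPM in microglia, so that microglia replicate 2 was above and the others below the astrocyte libraries. Over coding transcripts *Rack1* had 7 to 12 reads per library and was not called (-0.74, adjusted p = 0.213), nor was *Tbrg4* (-0.46, adjusted p = 0.582). *Atxn2* itself, unmutated in these mice, had 12.1, 12.8 and 11.1 CPM in astrocytes and 13.8, 8.06 and 12.2 CPM in microglia and a log2FC of 0.05 ± 0.31 (adjusted p = 0.936), a difference smaller than its error.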

How the data were processed

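Total RNA was extracted with TRIzol from magnetically isolated brain fractions and sequenced as panRNA-Seq libraries with unique molecular identifiers. Per the labels and the methods, reads were trimmed (cutadapt 4.6), deduplicated by identifier and insert, aligned to mm39 (Bowtie2 2.4.4) and counted per transcript (HTSeq 2.0.2) without use of strand, so that overlapping and antisense genes cannot be told apart, nor near-identical copies. The deposited values are raw counts for 116873 transcripts. The remaining per-sample columns (36, normalised values), the authors' mean columns (24) and columns of the authors' own comparisons (20, fold changes and p-values) were not used, and 137 rows without a symbol (0.0234% of the counts) were left out of library sizes and tests.

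Counts were summed by symbol (35823) with pandas 2.3.3 in Python 3.11.15, and a symbol was tested where 2 or more of the 6 libraries gave it 5 or more reads. The main test was edgeR's quasi-likelihood test (edgeR 4.0.16, R 4.3.3) with TMM scaling, no covariate and Benjamini-Hochberg adjustment over all genes tested, and CPM used the same effective library sizes. Genes with 0 reads in one group were given a floor of 3 reads over that group, and those with 1 to 3 reads a ratio with a 95% counting interval (SciPy 1.17.1). All scripts with a test were checked on simulated data with planted changes of 2 on the log2 scale. Of the planted changes tested, 153 of 178 were recovered in the WT contrast and 159 of 188 in KIN. The test of the interaction recovered 77 of 192 and the transcript test 93 of 156. These last tests thus missed many changes of that size. False calls numbered 4 to 8 per comparison. Alternatives were DESeq2 1.42.0 or its size factors, other filters, scalings and sets of libraries, a replicate block, the most abundant or the protein-coding transcripts, and leaving out each library. The members and lists were chosen with earlier results of these data known. Genes were named by rule: the markers and bead antigens, *Atxn2*, the 15 genes of highest mean CPM each way among those called with a log2FC of 3 or more and no overlap, up to 4 members of each function list called in its main direction, 3 in the other and 2 not called, divided or called pairs, and the 5 genes of 100 CPM or more with the smallest difference. Some genes so chosen are not reported here. A few further members were named after their values were seen (*Slc1a3*, *Slc38a3*, *Kcnj10*, *Lcat*, *Spi1*, *Syk*, *Plcg2*, *C3ar1*, *C5ar1*, *Cd74*). Gene positions came from the GRCm39 annotation and promoter windows from RefSeq. The labels number the replicates as biological but do not say which fractions came from 1 mouse, and p-values measure the spread between 3 libraries per group. Figures were drawn with matplotlib 3.10.9.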

Additional observations from a re-analysis of the deposited data

Results flagged for a closer look

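For 9 of the genes named above, the difference between astrocytes and microglia depended on genotype in the fit of both genotypes (edgeR quasi-likelihood test of the interaction, Benjamini-Hochberg over 13277 genes). Values are the WT log2FC minus the KIN log2FC.

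*Apoe* differed by 3.14 (adjusted p = 1.22e-07), with a log2FC of 1.31 in WT and -1.74 in KIN, and was called in all 12 fits that left out 1 library. *Arsb* differed by 2.94 (adjusted p = 0.000117), with 0.84 in WT and -2.0 in KIN. It was called in all 12 such fits, but not by DESeq2 (adjusted p = 0.192). *Cxcl14* differed by 5.89 (adjusted p = 0.00788), with 8.20 in WT, where microglia had no read and the fitted value is no bound, and 2.31 in KIN. It was called in all 12 fits, with an adjusted p of 0.0561 by DESeq2. *Csf1* differed by 1.99 (adjusted p = 0.00437), with -0.86 in WT and -2.77 in KIN, and was called in all 12 fits.

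*Ptgds* differed by -1.92 (adjusted p = 0.00691), with 3.95 in WT and 5.95 in KIN, called in all 12 fits. *Cnp* differed by -1.62 (adjusted p = 0.0406), with 4.05 in WT and 5.76 in KIN, called in 4 of 12 fits and not by DESeq2 (adjusted p = 0.0561). Both are genes of myelin-forming or meningeal cells. *Egr1*, of the immediate-early list, differed by -1.51 (adjusted p = 0.0114), with -4.14 in WT and -2.54 in KIN, called in 9 of 12 fits. *Ly86* differed by 3.19 (adjusted p = 0.0101), with -3.03 in WT and -6.13 in KIN, called in 10 of 12 fits but not by DESeq2 (adjusted p = 0.108). *Pdgfb* differed by 2.65 (adjusted p = 0.0461), with -3.74 in WT and -6.30 in KIN, called in 4 of 12 fits and not by DESeq2 (adjusted p = 0.272). KIN astrocytes had 0, 0.54 and 0.82 CPM of *Ly86* and 0.62, 0 and 0.41 CPM of *Pdgfb*. The KIN log2FC of both genes are thus fitted values near the floor. *Egr1* was not called without WT astrocyte replicate 1 or 3 or KIN microglia replicate 3, and *Ly86* not without WT or KIN astrocyte replicate 1. *Cnp* lost its call without WT astrocyte replicate 1 or 3, WT microglia replicate 3, KIN astrocyte replicate 2 or 3, or any KIN microglia library. *Pdgfb* lost its call without WT astrocyte replicate 1 or 3, WT microglia replicate 1, any KIN astrocyte library, or KIN microglia replicate 1 or 3. What sets these differences was not tested.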

How the results depend on the processing

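Of 248 genes chosen by the naming rule, 208 had the same call and direction in every one of the 16 settings tried in which they were tested. Of the 175 called, 18 lost the call in some setting, and of the others 21 gained one. The single reversal was *Tgfb1*, with a log2FC of -5.70 over protein-coding transcripts, an alternative chosen after seeing the data. Leaving out 1 library moved the fold difference of 29 called genes so chosen by over 1.5 times, 14 of them without microglia replicate 1. None of the 28 list medians of 1 or more in size changed sign in any setting, and 2 of the 11 smaller ones did, those of lymphocyte markers and of Y-linked genes.

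The 3284 called genes became 2130 where a mean of 10 or more counts was required (6375 genes tested), 2332 by DESeq2 and 2694 to 3244 with 1 library left out. The share of called genes higher in astrocytes, 50.9%, was 54.8% with TMM computed without mitochondrial genes and the 10 most abundant symbols, 53.6% with all 18 libraries in 1 fit, and 49.3 to 54.7% with 1 library left out. Without microglia replicate 1 the median of all genes moved to 0.12. The 2483 WT differences called the same way in KIN were 1492 with the mean filter and 2179 to 2413 with 1 library left out. The 152 genes whose difference depended on genotype were 40 by DESeq2, 170 with the mean filter and 69 to 300 with 1 library left out. The 20 symbols with opposite transcripts were 5 by DESeq2, 4 with the mean filter and 10 to 14 with 1 library left out. The cause of these shifts was not tested, apart from the smaller number of genes tested under the mean filter.

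The paper isolated the fractions in sequence from single brains, so that both groups can share mice. The labels do not say which libraries share a mouse, and the main fit treated the groups as unpaired. The correlation of deviations from the group means between libraries with the same number was 0.066, 0.212 and 0.097. Replicate 2 of either fraction correlated negatively with the other numbers (-0.144 to -0.111), while astrocyte replicate 1 correlated more with microglia replicate 3 (0.071). Whether libraries with the same number came from 1 mouse was therefore not settled. With the replicate number as a block, 3393 genes were called, 2490 also in KIN, 266 depended on genotype and 22 symbols had opposite transcripts. With 768837 to 1168189 reads per library outside *Zfp101* and *Creb5*, genes below the read limit were not tested in the main fit. Without that limit, 23232 symbols were tested and 3317 called, 3121 of them the same way as in the main fit.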
